A study of Homo sapiens with 4 samples.

Results

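The 10 genes described here encode chemokines and cytokines: the CXC chemokines CXCL1, CXCL2, CXCL3, CXCL5, CXCL6 and CXCL8, the CC chemokine CCL2, and IL6, IL11 and LIF of the IL6 family. They were taken by gene name from a count table of 59384 gene names, and all 10 names were present. They were picked with results of the comparison of shFABP4 with pLKO already known, so their differences between those groups are given as a description, without a test. Of the 10, 9 passed the filter on low counts and CXCL6 did not. RNA was sequenced from Daoy cells, an established human medulloblastoma line labelled as tumor cells. The libraries were 2 of cells carrying a lentiviral short hairpin against FABP4, labelled FABP4 knockdown (shFABP4 1 and shFABP4 2), and 2 of cells given the PLKO virus and labelled WT (pLKO 1 and pLKO 2). All 4 libraries come from virus-infected cells of 1 line, with 1 hairpin name in the labels. The labels do not say whether the libraries within a group are separate cultures, and the p-values below measure only how far these 4 libraries scatter, which may be technical.

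CXCL1, CXCL2, CXCL3, CXCL5, CXCL6 and CXCL8 attract neutrophils through the receptors CXCR1 and CXCR2, and their genes lie together on chromosome 4. CCL2 attracts monocytes through CCR2. IL6, IL11 and LIF each bind a receptor chain of their own and signal through the shared chain IL6ST to JAK kinases and STAT3. Many of these genes are known NF-kappaB targets, joined at some promoters by AP-1 and C/EBP factors.

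The libraries held 2539862 (shFABP4 1), 20431660 (shFABP4 2), 8988961 (pLKO 1) and 13839885 (pLKO 2) counted fragments. The shallowest library, shFABP4 1, had a fragment in 51762 gene names, against 22350 to 25560 in the other 3. It also held 6.55 fragments per kb of exon in 380 olfactory receptor genes, against 0.213 to 0.355 in the other 3. Rates in 2657 coding genes that were silent in the other 3 libraries put 54.9% of its fragments to background. A second estimate, from 1023 coding genes abundant in the pLKO libraries, put only 21.9% of its fragments to RNA, against 45.1% by these rates. FABP4 had 14 and 0 fragments in shFABP4 and 1 and 6 in pLKO, with 4.72 expected from background in shFABP4 1. FABP4 was not lower in shFABP4 1 than in pLKO, but no library held more than 14 fragments, so its knockdown cannot be judged here. Below, shFABP4 1 means the library so labelled. Of 9 neural and medulloblastoma markers, VIM was abundant (2830 and 131016 fragments in shFABP4, 13811 and 21475 in pLKO), while SOX2, ATOH1, OTX2, NEUROD1 and MYCN had at most 2 fragments outside shFABP4 1. NES (171 and 180 in shFABP4, 35 and 69 in pLKO), GLI1 (123 and 479 in shFABP4, 49 and 72 in pLKO) and GLI2 (265 and 187 in shFABP4, 17 and 23 in pLKO) had fragments in every library. The 9 markers summed to 3563 fragments in shFABP4 1, 2830 of them VIM, with 523.3 expected from background. The counts of NES, GLI1 and GLI2 in that library thus include background. The 10 immune markers summed to 612 and 109 fragments in shFABP4 and 47 and 66 in pLKO, with 378 expected from background in shFABP4 1. PTPRC, which marks all leukocytes, had 30 and 0 fragments in shFABP4 and 0 and 2 in pLKO. The 4 endothelial markers summed to 495 and 27 fragments in shFABP4 and 10 and 12 in pLKO (335.5 expected from background in shFABP4 1), and the 4 platelet markers to 417 and 147 in shFABP4 and 81 and 96 in pLKO (135.1 expected from background in shFABP4 1). ITGA2B held 384 and 147 of these platelet marker fragments in shFABP4 and 80 and 95 in pLKO.

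The promoters are shown first, because genes of this group with nearly the same proximal sequence differed in level. RefSeq promoters (GRCh38.p14, from 250 bases before the start to 50 after it) were matched for 8 of the 10 genes. CCL2 and LIF are named only. Each line gives 100 bases in the direction of the gene, 5′ to 3′. Capitals mark a match to the kappaB consensus, the binding site of NF-kappaB, in CXCL1, CXCL2, CXCL3, CXCL5, CXCL6 and IL6, to the shorter kappaB core GGAATTTCC in CXCL8, and to the AP-1 motif TGANTCA in IL11.
CXCL1: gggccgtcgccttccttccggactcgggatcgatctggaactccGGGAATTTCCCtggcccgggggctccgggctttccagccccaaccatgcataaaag
CXCL2: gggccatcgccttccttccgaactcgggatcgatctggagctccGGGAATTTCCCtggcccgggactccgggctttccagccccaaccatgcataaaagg
CXCL3: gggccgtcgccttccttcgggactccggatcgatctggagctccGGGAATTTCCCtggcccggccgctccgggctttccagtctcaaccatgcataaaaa
CXCL5: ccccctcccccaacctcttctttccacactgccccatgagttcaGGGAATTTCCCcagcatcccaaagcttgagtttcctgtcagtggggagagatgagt
CXCL6: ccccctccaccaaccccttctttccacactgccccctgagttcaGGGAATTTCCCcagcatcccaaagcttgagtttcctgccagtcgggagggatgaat
CXCL8: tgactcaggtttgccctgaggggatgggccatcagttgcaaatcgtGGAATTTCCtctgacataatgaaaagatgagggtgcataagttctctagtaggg
IL6: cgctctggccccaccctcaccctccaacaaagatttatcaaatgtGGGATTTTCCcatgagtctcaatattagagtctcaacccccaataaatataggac
IL11: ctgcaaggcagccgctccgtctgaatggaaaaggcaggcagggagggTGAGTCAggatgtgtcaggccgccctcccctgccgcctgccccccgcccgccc

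The windows lie at chr4:73869270-73869369 (plus strand), chr4:74099218-74099317 (minus strand), chr4:74038713-74038812 (minus strand), chr4:73998713-73998812 (minus strand), chr4:73836544-73836643 (plus strand) and chr4:73740432-73740531 (plus strand) for the CXCL genes, at chr7:22727082-22727181 (plus strand) for IL6 and at chr19:55370507-55370606 (minus strand) for IL11. Both strands were searched. The kappaB consensus and the core overlap in 5 CXCL promoters, where the capitals join a match on each strand. The consensus was present in 6 of the 8 promoters, against 11.3% of 35116 RefSeq promoters of the same length. The core was present in 6 of the 8, against 0.461% of all. These matches stood at positions -91 to -68 from the start in the 6 CXCL genes, and the IL6 match GGGATTTTCC at -73 to -64. TGANTCA was present in CXCL8 and IL11, against 7.71% of all promoters, and the C/EBP motif TTGCNNAA in CXCL2 and IL6, against 10.5%. The windows of CXCL5 and CXCL6 were identical at 93 of 100 positions, those of CXCL1 and CXCL3 at 92, and those of CXCL5 and CXCL1 at 39. A match describes the letters in the window and nothing about binding in these cells.

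In pLKO cells, levels per length placed the CXCL genes of the cluster far apart. As CPM (fragments scaled to the library total) per kb of exon, CXCL5 (epithelial neutrophil activator) was highest at 86.8 ± 1.57 (SD, n = 2 here and in the rest of this paragraph), above 95.2% of the genes tested. CXCL2 followed at 75.2 ± 0.0573 and CXCL1 at 49.0 ± 2.25. CXCL8 (interleukin 8) stood at 22.9 ± 1.54. LIF at 10.9 ± 0.963 and CXCL3 at 10.01 ± 0.760 were neighbours whose libraries overlapped. IL11 at 2.11 ± 0.242, IL6 at 1.81 ± 0.204 and CCL2 at 1.30 ± 0.0151 were lowest of the genes detected. The ranges of IL11 (2.29 and 1.94) and IL6 (1.67 and 1.96) overlapped too. CXCL6 had 0 fragments in both pLKO libraries, which allows up to 0.334 and 0.217 CPM, and CXCL6 was also at 0 in shFABP4 2 (up to 0.147 CPM). Its 5 fragments in shFABP4 1 compare with 9.66 expected from background. CXCL5 and CXCL6, with the near-identical proximal promoters shown above, were thus the most abundant gene and the undetected gene of the group. Intervals and limits here cover counting error only.

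**Figure D1:**
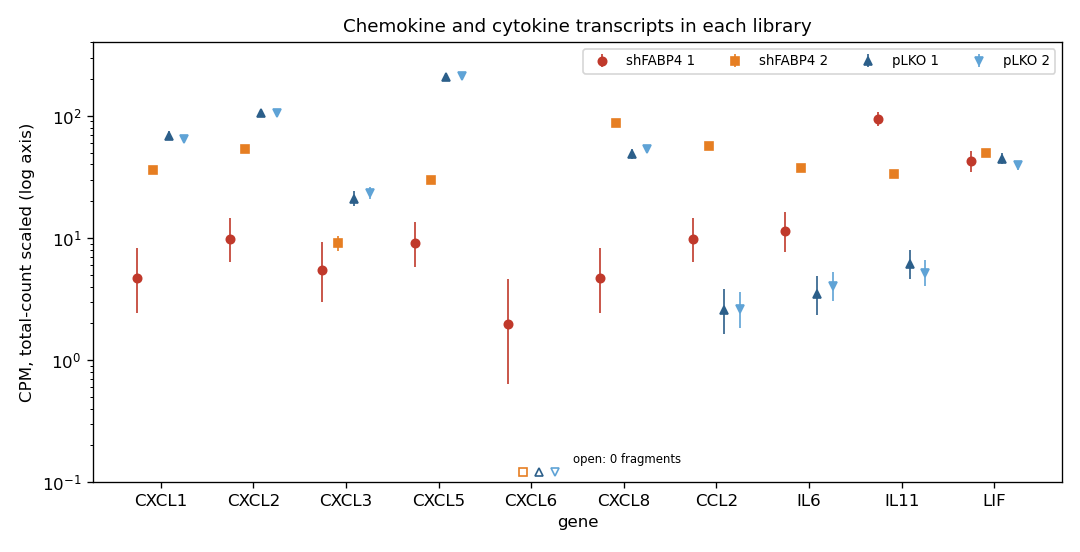
CPM, the fragments scaled to the library total, on a log axis, for each of the 10 genes in each library; bars are exact 95% Poisson intervals, which cover counting error only, and open symbols stand for 0 fragments. CXCL1, CXCL2, CXCL3 and CXCL5 lie lower in both shFABP4 libraries than in both pLKO libraries, while CXCL8 splits the shFABP4 libraries to either side.

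CXCL1, CXCL2, CXCL3 and CXCL5 were lower in both shFABP4 libraries than in pLKO when scaled to the library total, with the lowest values in shFABP4 1. CXCL5 (chr4:73995642-73998677, minus strand, GRCh38, 2436 bases of merged exons) had 23 and 611 fragments in shFABP4 and 1876 and 2963 in pLKO. Scaled to the library total this was 9.06 (95% Poisson interval 5.74 to 13.6) and 29.9 (27.6 to 32.4) CPM in shFABP4, against 208.7 (199.4 to 218.4) and 214.1 (206.5 to 221.9) CPM in pLKO. Both shFABP4 libraries lay below both pLKO libraries, and the pLKO libraries lay close together. The fitted log2 fold change was -3.82 (SE 1.09, edgeR). In shFABP4 2 alone against the pLKO libraries, CXCL5 was at -3.07 (SE 0.06), a value below that of 97.5% of the 15301 genes in that fit. Nothing is read from this rank, since the genes were picked on this contrast. The SE of a fit with 1 shFABP4 library left out, here and below, comes from the pLKO pair alone. Such an SE holds no variation between shFABP4 libraries.

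CXCL1 (chr4:73869393-73871308) had 4.73 and 35.9 CPM in shFABP4, from 12 and 733 fragments, and 68.9 and 64.5 CPM in pLKO, from 619 and 893. CXCL2 (chr4:74097040-74099196) had 9.84 and 53.6 CPM in shFABP4, from 25 and 1095 fragments, and 105.0 and 105.1 CPM in pLKO, from 944 and 1455. The groups did not overlap for either gene, both of which encode ligands of CXCR2. CXCL3 (chr4:74036589-74038807) had 5.51 and 9.01 CPM in shFABP4, from 14 and 184 fragments, and 21.0 and 23.4 CPM in pLKO, from 189 and 324. Its fitted log2 fold change was -2.09 (SE 0.68), beside -2.02 (SE 1.23) for CXCL1 and -2.06 (SE 1.15) for CXCL2. In shFABP4 2 alone, CXCL1, CXCL2 and CXCL3 stood at -1.13, -1.22 and -1.55. The ratio of CXCL2 to CXCL1 fragments was 2.08 and 1.49 in shFABP4 and 1.52 and 1.63 in pLKO.

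CXCL8 (chr4:73740541-73743716) differed from its cluster neighbours in shFABP4 2. It had 4.73 and 87.0 CPM in shFABP4, from 12 and 1777 fragments, and 48.7 and 53.6 CPM in pLKO, from 438 and 742. One shFABP4 library lay below both pLKO libraries and the other above them, and the fitted log2 fold change was -0.43 (SE 1.48). With shFABP4 1 left out it was 0.51, and with shFABP4 2 left out -5.68. In shFABP4 2 CXCL8 was at 1.68 times its pLKO level (95% interval from counting 1.56 to 1.81), and CXCL5 at 0.141 times (0.129 to 0.154).

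Of the members tested, CXCL1, CXCL2, CXCL3 and CXCL5 (4 of 9) had both shFABP4 libraries below both pLKO libraries in TMM-scaled CPM, where 26.1% of all tested genes did. CCL2, IL6 and IL11 (3 of 9) had both above, where 28.5% of all tested genes did. The same 3 had fitted values above 0, where 59.5% of all tested genes did. Nothing is read from these shares, since the genes were picked on this contrast. Scaled instead by 1023 coding genes that were abundant in the pLKO libraries, CXCL3 overlapped between the groups and LIF lay above in both shFABP4 libraries. On that scale CXCL5 stood at 30.6 and 31.8 CPM in shFABP4 and 184 and 189 CPM in pLKO, so that the shFABP4 libraries no longer differed as they did by library total. CXCL3 stood at 18.6 and 9.57 CPM in shFABP4 and 18.6 and 20.7 CPM in pLKO. CXCL3 lay below again once background was also subtracted. That scaling moved the median log2 fold change of all tested genes to 2.43, against 0.34 with TMM.

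CCL2 and IL6 were much higher in shFABP4 2. CCL2 (chr17:34255218-34257203), the monocyte chemoattractant, had 9.84 and 56.9 CPM in shFABP4, from 25 and 1163 fragments, and 2.56 and 2.60 CPM in pLKO, from 23 and 36. In shFABP4 2 this was 22.0 times the pLKO level by library total (95% interval from counting 16.9 to 29.1). The TMM-scaled fit without shFABP4 1 placed CCL2 at a log2 fold change of 4.21, and 0.660% of genes had a larger one. IL6 (chr7:22725884-22732002) had 11.4 and 37.2 CPM in shFABP4, from 29 and 761 fragments, and 3.45 and 4.05 CPM in pLKO, from 31 and 56. In shFABP4 2 that was 9.77 times the pLKO level by library total (7.82 to 12.4). The same fit without shFABP4 1 placed IL6 at 3.045, and 1.69% of genes had a larger value. Nothing is read from these ranks, since the genes were picked on this contrast. The fitted log2 fold change over all libraries was 3.36 (SE 1.23) for CCL2 and 2.31 (SE 0.97) for IL6. Without shFABP4 2 both turned below 0, to -0.32 (SE 0.49) for CCL2 and -0.65 (SE 0.41) for IL6. That fit tested 27830 genes with a median log2 fold change of 2.22, against 14735 genes and 0.34 with all 4 libraries. Values without shFABP4 2, for every member, thus rest on another gene set and scaling. In the TMM scaling of all 4 libraries, shFABP4 1 lay above pLKO for both genes. There CCL2 had 6.51 CPM (pLKO 3.49 and 3.57) and IL6 had 7.56 CPM (pLKO 4.70 and 5.55). IL6 exons share 428 bases with the antisense gene IL6-AS1, which held 8 and 23 fragments in shFABP4 and 17 and 12 in pLKO.

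IL11 was above pLKO in both shFABP4 libraries, and its fitted value stayed above 0 with either of them left out. IL11 (chr19:55364382-55370463, minus strand), a cytokine of the IL6 family known for its part in fibrosis and platelet formation, had 94.5 and 33.3 CPM in shFABP4, from 240 and 681 fragments, and 6.12 and 5.20 CPM in pLKO, from 55 and 72. The fitted log2 fold change was 2.70 (SE 0.52). Without shFABP4 1 it was 2.33 (SE 0.16), and without shFABP4 2 it was 1.83 (SE 0.19). LIF (chr22:30240453-30246759, minus strand), the leukaemia inhibitory factor, had 42.5 and 49.6 CPM in shFABP4, from 108 and 1014 fragments, and 44.7 and 39.5 CPM in pLKO, from 402 and 546, when scaled to the library total. The place of shFABP4 1 depended on the scaling: LIF had 28.1 and 57.2 TMM-scaled CPM in shFABP4 and 60.9 and 54.1 in pLKO, but 143.8 and 52.7 in shFABP4 and 39.5 and 34.9 in pLKO when scaled by abundant genes. Its fitted log2 fold change was -0.43 (SE 0.55), or 0.00 (SE 0.08) without shFABP4 1 and -2.22 (SE 0.13) without shFABP4 2. LIF exons share 86 bases with the antisense gene LIF-AS1, which held 24 and 1 fragments in shFABP4 and 5 and 2 in pLKO.

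How much of each count in shFABP4 1 could be RNA was set beside background in that library. Background expected from length and GC content was 8.41 fragments for CXCL5 (23 observed, 95% Poisson interval 14.6 to 34.5), 9.80 for CXCL1 (12, 6.20 to 21.0), 14.8 for CXCL2 (25, 16.2 to 36.9), 23.5 for CXCL3 (14, 7.65 to 23.5) and 7.73 for CXCL8 (12, 6.20 to 21.0). Transcripts at their pLKO share would have added to this, for totals of 126 to 251 fragments for CXCL5, 46.9 to 86.2 for CXCL1, 73.3 to 135.1 for CXCL2, 35.9 to 48.9 for CXCL3 and 36.2 to 66.3 for CXCL8. The ranges come from RNA shares of 21.9% and 45.1% for the library, by the abundant genes and by the background rates. All 5 counts were below these totals, CXCL8 included. The intervals of CXCL3 and CXCL8 included the background expected from length and GC content and that from silent neighbours. The interval of CXCL1 included the first estimate but lay above the second, of 4.83 fragments. RNA at the shFABP4 2 share would bring 25.1 to 42.7 fragments for CXCL5, a range that overlaps the interval of its count. With background taken from length alone, 21.0 fragments were expected for CXCL5, so its RNA in that library depends on the estimate. The 3 other coding genes within 1 Mb of the cluster that were silent elsewhere held 15 fragments in 4.23 kb, or 3.54 per kb.

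**Figure D2:**
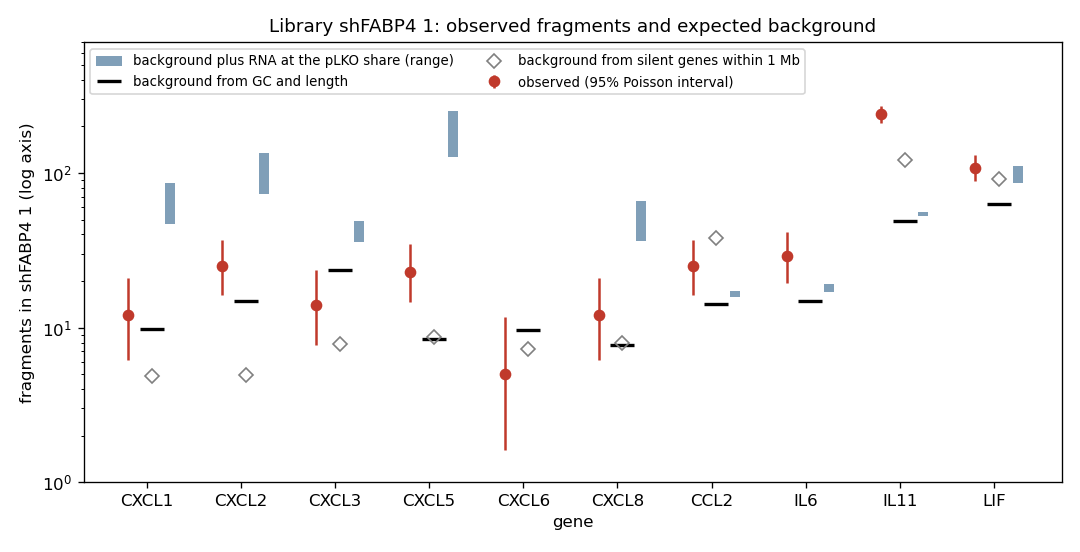
Fragments in shFABP4 1 on a log axis for each gene: observed counts with 95% Poisson intervals, background expected from GC content and length, background from coding genes within 1 Mb that were silent in the other libraries (no such gene near IL6), and the range expected if RNA at the pLKO share were added. The CXCL counts lie near background and under the pLKO range, and IL11 with 240 fragments lies above all 3.

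Among the other members, CCL2 had 25 fragments with 14.3 expected by GC content and length, or 37.9 at the rate of 2 silent coding genes within 1 Mb, so that its RNA was not separable from background there. IL6 had 29 with 14.9 expected by GC content and length. LIF had 108 with 63.3 expected by GC content and length and 91.1 at the rate of 3 silent neighbours, and RNA at the pLKO share would bring 86.7 to 112. IL11 had 240 fragments (210.6 to 272.4), with 49.2 expected by GC content and length and 120.8 at the rate of 5 silent neighbours within 1 Mb, which held 45.1 fragments per kb. The IL11 count exceeded both estimates. What part background has in the IL11 value of shFABP4 1 was not tested further.

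Ratios within a library do not depend on how libraries are scaled, but those of shFABP4 1 depend on its background. CXCL5 fragments were 1.92 and 0.344 times CXCL8 fragments in shFABP4, and 4.28 and 3.99 times in pLKO. The counts of shFABP4 1 include background, which was not taken off here, and nothing is read from its CXCL5 to CXCL8 ratio. IL6 fragments were 1.26 and 1.25 times CXCL5 fragments in shFABP4, and 0.0165 and 0.0189 times in pLKO. In shFABP4 1 this ratio rests on 29 and 23 fragments, with 14.9 and 8.41 expected from background. Nothing is read from how close it comes to that of shFABP4 2. The 10 genes together held 493 and 8019 fragments in shFABP4 and 4577 and 7087 in pLKO. CXCL5 made up 4.67% (Wilson 95% interval 3.13 to 6.90) and 7.62% (7.06 to 8.22) of them in shFABP4, against 41.0% (39.6 to 42.4) and 41.8% (40.7 to 43.0) in pLKO. CXCL8 made up 2.43% and 22.2% in shFABP4 and 9.57% and 10.5% in pLKO. CCL2, IL6 and IL11 made up 5.07%, 5.88% and 48.7% in shFABP4 1 and 14.5%, 9.49% and 8.49% in shFABP4 2, where none of them exceeded 1.20% in a pLKO library. LIF made up 21.9% and 12.6% in shFABP4 and 8.78% and 7.70% in pLKO. The makeup of the shFABP4 libraries differed from pLKO and from one another. In these bulk libraries fewer cells that make a transcript and less of it per cell cannot be told apart.

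**Figure D3:**
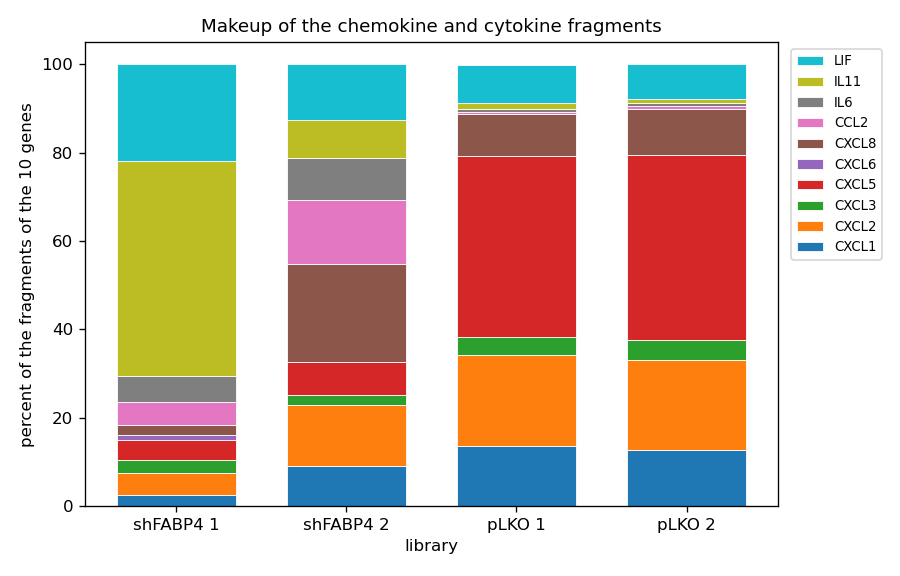
Share of the 10 genes' fragments held by each gene, in percent, in the 2 shFABP4 and the 2 pLKO libraries. CXCL5 takes 4.67% and 7.62% in shFABP4 and 41.0% and 41.8% in pLKO, and IL11 takes 48.7% in shFABP4 1, a library with background.

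Receptors, related ligands and regulators of these genes were listed by their known roles. In edgeR's quasi-likelihood fit to 14735 genes, 0 had an adjusted p under 0.05 (0% of genes), against 1818 at an unadjusted p under 0.05 and 695 by DESeq2. So 0 of the 61 tested genes of the 8 lists passed, and 9 of the 61 had an unadjusted p under 0.05. With shFABP4 1 left out, 66.9% of 15301 genes passed (34.2% higher and 32.7% lower in shFABP4). The spread in that fit comes from the pLKO pair alone, and the single shFABP4 library is taken to vary like that pair. In that fit 49 of 62 tested list genes passed, 22 higher and 27 lower.

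None of 7 chemokine receptor genes passed the filter on low counts, and none had more than 5 fragments in a library other than shFABP4 1. CXCR2, the receptor for CXCL1, CXCL2, CXCL3, CXCL5 and CXCL8, had 39 and 0 fragments in shFABP4 and 0 and 0 in pLKO, with 23.1 expected from background in shFABP4 1. CCR2, the CCL2 receptor, had 44 and 0 in shFABP4 and 0 and 0 in pLKO (18.3 expected in shFABP4 1), and the scavenger receptor ACKR3 had 46 and 0 in shFABP4 and 0 and 0 in pLKO (21.9 expected). In shFABP4 1 these 3 counts exceeded the background expected from length and GC content, which is a mean rate over many genes. With 0 fragments in the other libraries, the 3 genes were themselves among the silent coding genes that set that rate. Nothing is read from the excess, and the spread of background between genes was not tested. Of 6 IL6 family receptors, 5 were tested and 0 passed. IL6ST, the shared signalling chain, had 38.6 and 62.0 CPM in shFABP4 and 76.0 and 74.8 CPM in pLKO (log2 fold change -1.08, SE 0.68, adjusted p = 0.450, edgeR). OSMR, the oncostatin M receptor, had 36.2 and 128 CPM in shFABP4 and 32.9 and 33.4 CPM in pLKO (0.93, SE 0.96, adjusted p = 0.610, edgeR). Without shFABP4 1, OSMR stood at 1.70 and IL6ST at -0.53.

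Of 8 other IL6 family ligands 3 were tested. EBI3, a subunit of heterodimeric cytokines, had 16.5 and 31.2 CPM in shFABP4 and 30.1 and 32.1 CPM in pLKO, and CLCF1 had 36.2 and 21.4 CPM in shFABP4 and 11.3 and 15.4 CPM in pLKO. In shFABP4 1 EBI3 had 42 fragments with 23.1 expected from background, and CLCF1 had 92 with 30.0 expected. Of 30 other chemokines 5 were tested, and 0 passed. CXCL16 had 29.1 and 4.99 CPM in shFABP4 and 6.01 and 5.78 CPM in pLKO. Of its 74 fragments in shFABP4 1, 45.7 were expected from background. CXCL12 had 114 fragments in shFABP4 1, with 64.3 expected from background, and 0 in the other 3 libraries. CCL7, a monocyte chemoattractant named after its values were seen because DESeq2 called it, had 18 and 19 fragments in shFABP4 and 0 and 0 in pLKO, with 4.09 expected from background in shFABP4 1.

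Among 15 other inflammatory cytokines, 8 were tested. CSF3, the granulocyte colony-stimulating factor, was the most abundant, with 25.2 and 1.62 CPM in shFABP4, from 64 and 33 fragments, and 113 and 120 CPM in pLKO, from 1019 and 1662. Its groups did not overlap, and 40.8 of the 64 fragments in shFABP4 1 were expected from background. Its log2 fold change of -4.14 (SE 1.24) did not pass (adjusted p = 0.391, edgeR), while DESeq2 called it (-4.22, adjusted p = 0.00360) and the fit without shFABP4 1 placed it at -6.42 (SE 0.12). CSF3, like the CXCL ligands of CXCR2, acts on neutrophils. CSF1, the macrophage growth factor, had 30.3 and 44.1 CPM in shFABP4 and 33.3 and 31.1 CPM in pLKO, and did not pass (adjusted p = 0.800, edgeR). Its 77 fragments in shFABP4 1 compare with 85.6 expected from background.

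NF-kappaB factors and regulators gave 19 tested genes, of which 0 passed. Of the 19, 14 had a fitted value below 0, where 5975 of all 14735 tested genes did. Both shFABP4 libraries lay below both pLKO libraries for 9 of the 19, where 26.1% of all tested genes did. The list median was -0.63, against 0.34 over all tested genes. TNIP1, an inhibitor that acts with TNFAIP3, had 129 and 384 CPM in shFABP4 and 1143 and 1178 CPM in pLKO (log2 fold change -2.58, SE 1.23, adjusted p = 0.399, edgeR). TRAF2, an adaptor of TNF receptors, had 121 and 96.6 CPM in shFABP4 and 324 and 322 CPM in pLKO (-2.20, SE 0.71, adjusted p = 0.391, edgeR). With shFABP4 1 left out, the list median was -0.98, against 0.04 over all genes in that fit, and 7 of the 19 had a value above 0. BIRC3, named because DESeq2 called it, had 19 and 136 fragments in shFABP4 and 277 and 405 in pLKO and stood at -2.76 in that tool (adjusted p = 0.0342). In shFABP4 1, 25.9 fragments of BIRC3 were expected from background.

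JAK and STAT3 signalling gave 11 tested genes with a median of 0.32, close to the median of 0.34 over all tested genes, and 0 passed. TYK2 had 89.4 and 46.6 CPM in shFABP4 and 52.8 and 56.8 CPM in pLKO. The pLKO values of TYK2, a JAK kinase, fell between those of the shFABP4 libraries. Of its 227 fragments in shFABP4 1, 122.5 were expected from background. Of 10 CEBP and mRNA decay genes 0 passed. A fitted value below 0 was found for 9 of the 10, and for 5975 of all 14735 tested genes. In 6 of the 10 both shFABP4 libraries lay below both pLKO libraries, where 26.1% of all tested genes did. With shFABP4 1 left out, 4 of the 10 had a value above 0. The list median was then -0.35, against 0.04 over all genes in that fit. CEBPB, a factor that binds many cytokine promoters, had 41.3 and 211 CPM in shFABP4 and 353 and 341 CPM in pLKO (-1.81, SE 1.24, adjusted p = 0.473, edgeR). HNRNPD, which binds AU-rich mRNAs, had 144 and 5088 fragments in shFABP4 and 1267 and 1925 in pLKO (-0.24, SE 1.10, adjusted p = 0.920, edgeR).

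**Figure D4:**
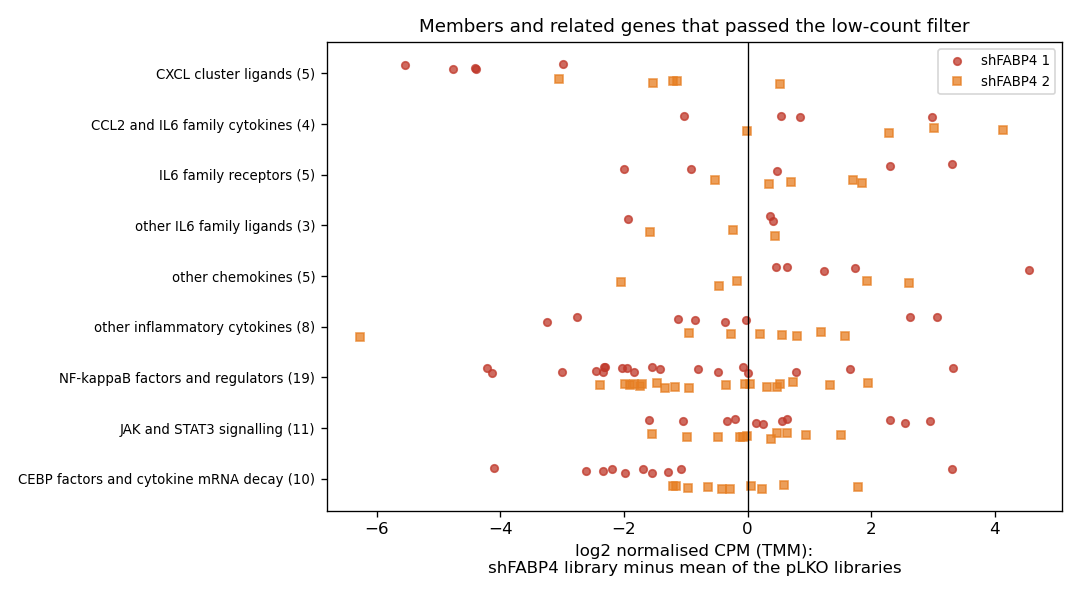
Difference in log2 normalised CPM (TMM scaling) of each shFABP4 library from the mean of the 2 pLKO libraries, for the members and the list genes that passed the filter on low counts; each point is a gene and the number of genes stands after each list name. The 5 CXCL points lie left of 0 in shFABP4 1, between -5.54 and -2.98, CCL2 and IL6 lie right in shFABP4 2, and the point at the far left of the inflammatory cytokines is CSF3.

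The genes whose profile over the 4 libraries was closest to the median profile of the 5 tested CXCL members, among 9251 coding genes with at least 20 fragments in every library, were HMGA1, CIB1, FXYD5, NUDC and ELOB, at distances of 0.288 to 0.394 on the log2 scale. HMGA1, an architectural chromatin protein, had 517 and 21893 fragments in shFABP4 and 19139 and 29074 in pLKO. The likeness rests on 4 libraries, with the CXCL profile at -3.30 and 0.19 in shFABP4 and 1.40 and 1.41 in pLKO (log2 from its mean). The value furthest from 0 is that of shFABP4 1, and what part its background has in the likeness was not tested. The median also joins members that differed in shFABP4 2, from -3.06 for CXCL5 to 0.52 for CXCL8 (log2 against pLKO). In the cluster itself, 17 other gene names lay within 200 kb of the CXCL genes (chr4:73540541-74299196). MTHFD2L, a mitochondrial folate enzyme, was the most abundant, with 31 and 389 fragments in shFABP4 and 165 and 230 in pLKO, and 33.9 expected from background in shFABP4 1. RASSF6 followed, with 18 and 12 fragments in shFABP4 and 0 and 5 in pLKO, and 22.9 expected from background in shFABP4 1. Its rank rests on that library, since RP11-19B4.2, described below, had more fragments in each of the others. The platelet chemokine genes PF4 (17 and 0 fragments in shFABP4, 1 and 1 in pLKO) and PPBP (4 and 0 in shFABP4, 0 and 0 in pLKO) were near 0 outside shFABP4 1. Exons of CXCL5 share 422 bases with a gene on the other strand, RP11-19B4.2, which held 0 and 24 fragments in shFABP4 and 10 and 11 in pLKO. The counting used no strand and no option for overlapping genes, so fragments on such shared bases cannot be assigned to either gene. Of the 50-base windows in CXCL2 transcripts, 8.99% also occur in CXCL3 and 3.88% in CXCL1, so part of the fragments of these 3 genes could not be placed with certainty, while CXCL5 and CXCL8 share no such window with another member.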

How the data were processed

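Libraries were made from bead-captured mRNA (TRIzol extraction) and fragmented by Tn5, per the labels' protocols. The submitters' processing notes name FastQC, HISAT, StringTie and GRCh38. The deposited table holds unnormalised fragment counts by gene name from featureCounts 2.0.0 (GENCODE 38 exons, no strand option, no option for overlapping genes), per the file headers. Exon lengths are from the same deposited table. The row of ANK2 was broken and left out. Gene type and GC content came from GENCODE 29 (63.6% of names matched).

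Tests on the counts used edgeR 4.0.16 (R 4.3.3, TMM, filterByExpr with a minimum of 10 and a total of 15, robust quasi-likelihood test, Benjamini-Hochberg over all genes); limma 3.58.1 and DESeq2 1.42.0 were alternatives. SE is the log2 fold change over the root of its F statistic. With 2 libraries against 2, no exact permutation test can reach 0.05. CPM scale each count to the library total. Background in shFABP4 1 was a rate per kb in 6 bins of GC content, from coding genes silent in the other libraries. On simulated counts the test with all 4 libraries did not recover the changed genes put in, while the fit without shFABP4 1 did. That outcome follows from the spread set in the simulation, wide for the former and narrow for the latter. No background was simulated, and the lone shFABP4 library was given the same spread as the pLKO pair. The simulation thus lends no weight to the fit without shFABP4 1. A count of 0 does not show that genes did not differ. Named list genes were the 2 with the highest mean CPM over the 4 libraries and up to 4 that passed (0 did), beside the 5 genes nearest in profile and the 2 most abundant neighbours of the cluster. One gene of the JAK and STAT3 list that this rule names is not reported here. CXCR2, CCL7, BIRC3, PF4 and PPBP were named after their values were seen. Members and lists were chosen with earlier results of these data known. Promoter windows were placed around the motif matches after the sequences were seen. Subtraction combined with scaling by abundant genes was added after seeing the data.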

Additional observations from a re-analysis of the deposited data

How the results depend on the processing

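The number of genes passing, 0 with all 4 libraries, was also 0 with RLE, upper-quartile, total-count and abundant-gene scaling, with limma-voom and with background subtracted (with and without that scaling). It was 695 with DESeq2, 69 without a filter on low counts, 28 with a replicate block, and 0 to 23895 with 1 library left out (10242 without shFABP4 1, 23895 without shFABP4 2). Of the list genes 0 passed, or 3 with DESeq2 (CCL7, CSF3 and BIRC3), and 0 to 86 with 1 library left out (49 without shFABP4 1, 86 without shFABP4 2). The cause of the DESeq2 and filter differences was not tested. Leaving out either shFABP4 library takes the spread from the pLKO pair. The number of genes tested differed too, from 14735 in edgeR's fit of all 4 libraries to 52418 without the filter. Without shFABP4 1, 15301 genes were tested, 62 of them list genes. Without shFABP4 2, 27830 genes were tested, 93 of them list genes. Nothing is read from the list counts of the fits with a shFABP4 library left out. Members with a fitted value above 0 numbered 3 of 9, 5 with abundant-gene scaling with or without background subtracted, and 1 to 5 with 1 library left out (5 without shFABP4 1, 1 without shFABP4 2). CXCL1, CXCL2, CXCL3, CXCL5 and IL11 kept their sign in all 14 alternatives, with CXCL5 from -6.79 to -2.58, CXCL3 from -4.26 to -0.50 and IL11 from 1.83 to 5.14. The sign changed in 9 of 126 member values: CXCL8 (-5.68 to 0.51), LIF (-2.22 to 1.40), CCL2 (-0.32 to 4.36) and IL6 (-0.65 to 3.56). The labels tie same-numbered libraries by number alone. The correlation of their deviations was 0.0106 over 14735 genes. Background in shFABP4 1 enters that value, so it can neither show nor exclude a pairing. The replicate block is therefore not read as a pairing. Low counts in shFABP4 1, from 5 to 29 fragments for 8 of the 10 genes, limit what that library can show.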
